A study of Mus musculus with 2 samples.

Results

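Bipolar cells are the interneurons that carry the signal of rods and cones to the inner retina, and 83 of the 3670 barcodes kept from 2 libraries of injured mouse retina met the rule for them (2.26%). A barcode marks the RNA of 1 droplet, usually 1 cell, and a UMI is a tag on 1 captured RNA molecule. Barcodes were kept from 500 UMIs and 300 genes upward, with mitochondrial genes giving no more than 15% of the UMIs. A kept barcode counted as a bipolar cell when it held at least 3 of Trpm1, Grm6, Pcp2, Cabp5, Isl1, Gng13, Scgn and Grik1 with at least 6 UMIs in sum, fewer than 10 UMIs of the cone genes Arr3, Gnat2 and Pde6h, and fewer than 10 UMIs of the Müller glia genes Rlbp1, Aqp4 and Dkk3. The cells were selected on the measured UMIs of these genes, so their levels are given as a description.

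Both libraries came from C57BL/6 mice aged 6 to 8 weeks at 2 weeks after optic nerve injury, and each was 1 pool of retinas from 6 mice. One group received PBS and the other MSC-sEV, a name that the labels do not spell out and that in this field stands for small extracellular vesicles of mesenchymal stem cells. No uninjured retina was analysed here. The suspension was enriched on magnetic beads for CD45, a surface protein of leukocytes that neurons do not carry, and the labels call the samples immune cells, so the bipolar cells are cells that passed this enrichment. With 1 library a group there is no replicate check, the differences compare 2 pools, and no p-value was computed.

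Bipolar cells contact photoreceptors with their dendrites and release glutamate from ribbon synapses. ON types answer light through the glutamate receptor mGluR6, encoded by Grm6, which acts through a G protein on the cation channel TRPM1, and OFF types use ionotropic glutamate receptors such as the kainate receptor encoded by Grik1. Rod bipolar cells, the type fed by rods, are ON cells known for protein kinase C alpha, encoded by Prkca.

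Promoter sequences are shown for Trpm1, the channel of the ON pathway, for Cabp5, a calcium-binding protein of several bipolar types, and for Grm6, the ON receptor, because the same transcription factor, OTX2, is known to act in bipolar cells and was itself measured in these cells. Each is the 250 bases before the start site on the plus strand, taken from RefSeq for GRCm38.p6, the assembly behind mm10, at chr7:64153585-64153834 for Trpm1, chr7:13397905-13398154 for Cabp5 and chr11:50850435-50850684 for Grm6. Capitals mark TAATCC on either strand, the core that OTX2 and its relative CRX bind.
Trpm1: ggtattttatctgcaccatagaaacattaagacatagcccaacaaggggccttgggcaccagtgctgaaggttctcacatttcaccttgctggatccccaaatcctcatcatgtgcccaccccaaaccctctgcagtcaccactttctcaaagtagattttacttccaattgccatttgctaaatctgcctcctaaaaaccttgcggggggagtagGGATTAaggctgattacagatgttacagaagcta
Cabp5: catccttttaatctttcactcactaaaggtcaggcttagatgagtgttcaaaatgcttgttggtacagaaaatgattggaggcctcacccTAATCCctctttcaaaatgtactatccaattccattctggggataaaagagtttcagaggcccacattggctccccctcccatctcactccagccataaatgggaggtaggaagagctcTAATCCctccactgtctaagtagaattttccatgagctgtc
Grm6: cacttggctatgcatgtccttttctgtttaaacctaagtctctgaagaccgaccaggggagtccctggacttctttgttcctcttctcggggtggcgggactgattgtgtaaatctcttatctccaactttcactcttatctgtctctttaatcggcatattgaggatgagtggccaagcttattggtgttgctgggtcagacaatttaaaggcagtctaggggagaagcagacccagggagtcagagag

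Trpm1 held 1 such match, Cabp5 2 and Grm6 0. Of the 8 marker genes, 7 were in the promoter table, and 3 of these held a match in the window of 250 bases before to 50 after the start, which were Trpm1, Cabp5 and Isl1. Genes can have several start sites, and these 7 had 12 windows, of which 3 held a match. The second Trpm1 window held 0. Over the table, 8.14% of 27025 genes had a match in any window and 7.06% of 32851 windows held one. The E-box CATATG, on either strand, was in 0 of the 12 windows and in 3.91% of all windows. A match is a description of letters and not a binding site. Otx2 itself was seen in 42 of 49 bipolar cells after PBS and in 30 of 34 after MSC-sEV. It is shared with photoreceptors, and 31.3% and 49.0% of rods held a UMI of it.

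The PBS library gave 49 bipolar cells of 1347 kept barcodes (3.64%, exact Clopper-Pearson interval 2.70 to 4.78) and the MSC-sEV library 34 of 2323 (1.46%, 1.02 to 2.04). The share was 2.49-fold lower in the MSC-sEV library (exact conditional binomial interval 1.57 to 3.97). All intervals are 95% intervals and cover counting error only. The beads and the larger number of leukocytes in the MSC-sEV library can set this share. A leukocyte rule of at least 3 of 8 leukocyte genes with at least 10 UMIs in sum was met by 182 PBS and 684 MSC-sEV barcodes. Among these were 9 PBS and 1 MSC-sEV of the bipolar cells. Without barcodes that met that rule, the shares were 40 of 1165 (3.43%) and 33 of 1639 (2.01%), or 1.71-fold lower. Some members also held much RNA of rods, as given below. Leaving out these and the members that met the leukocyte rule left 29 of 1347 and 30 of 2323. The cone and Müller glia limits removed 37 of 86 marker-positive PBS barcodes and 5 of 39 in the MSC-sEV library. The sum of the 8 markers ranged from 6 to 310 in PBS with a median of 75, and from 10 to 284 in MSC-sEV with a median of 113.5. Just inside the threshold, with sums of 6 to 9, were 5 PBS and 0 MSC-sEV cells, and just outside it, with 3 genes and sums of 3 to 5, were 5 and 1.

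Members held a median of 9180 UMIs in PBS and 8828.5 in MSC-sEV, against 2601 and 2920 over all kept barcodes, and no barcode was shared between the libraries. Amacrine and ganglion cell markers were near 0. Of 12 amacrine markers, 6 in PBS and 1 in MSC-sEV were seen, and Slc32a1, Tfap2a and Chat were at 0 in both. Of 9 ganglion cell markers, 2 were seen in each library, and Rbpms, Pou4f1 and Slc17a6 were at 0. Among the horizontal cell markers, the transcription factors Lhx1 and Onecut1 were at 0, and 3 others summed to 175 and 210 CPM, with a UMI in 29 of 49 and 25 of 34 members. These were Tpm3, an actin-binding tropomyosin, at 89.5 and 132 CPM, Sept4, a septin, at 78.6 and 49.7 CPM, and Onecut2 with 3 and 10 UMIs. Tpm3 and Sept4 were also found in rods, at 49.8 and 61.3 and at 56.4 and 26.4 CPM. Of the 45 Tpm3 UMIs after MSC-sEV, 24 lay in 1 cell.

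Some barcodes held RNA of other cells as well, and more of them came from PBS. The 16 rod markers took from 0.192% to 13.6% of a PBS member's UMIs and from 0.0755% to 4.39% in MSC-sEV, with medians of 0.631% and 0.171%. They lay above 2% in 18 PBS and 3 MSC-sEV members, and no PBS member lay between 1.30% and 2.48%. The leukocyte rule was met by 9 PBS members and 1 MSC-sEV member. That MSC-sEV member held 1241 UMIs of 15 microglia and macrophage markers, and the highest PBS member held 444. Leaving out members above 2% rod markers or meeting the leukocyte rule gave 29 PBS and 30 MSC-sEV cells, called marker-pure here, a set chosen after the data were seen. In these, the 16 rod markers still summed to 4355 CPM (UMIs per 1000000 UMIs of the summed cells) in PBS and to 1928 CPM in MSC-sEV, and the microglia and macrophage markers gave 0 to 7 and 1 to 10 UMIs a cell.

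**Figure D1:**
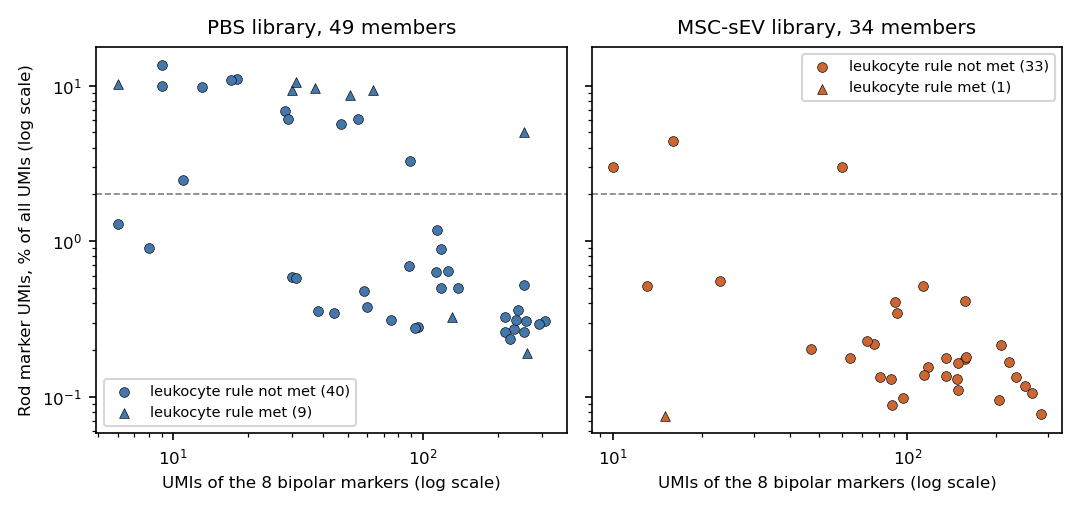
Each point is 1 bipolar cell of the PBS library (left, 49) or the MSC-sEV library (right, 34). The x axis gives the UMIs of the 8 markers and the y axis the rod markers as a percent of all UMIs, both on log scales. Triangles met the leukocyte rule, and the dashed line at 2% separates 18 PBS and 3 MSC-sEV cells above it.

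The 8 rule markers chose these cells, so their level above that of other cells follows from the rule and is given as a description. Trpm1 stood at 2076 CPM in the PBS members and 3297 CPM in the MSC-sEV members, with a UMI in 45 of 49 and 34 of 34. In rods, which should lack it, 3.19% of 972 and 1.38% of 1308 cells held a Trpm1 UMI, at 10.6 and 5.64 CPM and with median depths of 2058.5 and 2434.5 UMIs. Leukocytes, with median depths of 7314.5 and 11575 UMIs, are closer in depth and held bipolar transcripts more often after PBS. There 24.2% of 182 held a Trpm1 UMI (56.6 CPM) and 39.6% a Pcp2 UMI (336 CPM), against 2.63% and 4.39% of 684 after MSC-sEV. These leukocytes include the bipolar cells that met the leukocyte rule, 9 and 1, so the values are not background alone. Of the 162 PBS Trpm1 UMIs, 63 lay in 1 such cell. Grm6 was at 356 and 558 CPM, Isl1, a transcription factor of ON types, at 605 and 690 CPM, and Gng13, a G protein gamma subunit, at 3434 and 3707 CPM. Pcp2, a regulator of G protein signals, was lower in MSC-sEV, at 4292 and 3081 CPM, as was Cabp5 at 375 and 240 CPM. Scgn, a calcium-binding protein of cone bipolar types, was at 279 and 386 CPM and Grik1 at 116 and 146 CPM. None of the 8 markers differed 2-fold between the libraries over all members, against a background in which 10.9% of 6283 measured genes were at least 2-fold higher and 5.54% at least 2-fold lower in MSC-sEV. A gene counts as measured with at least 20 UMIs over both libraries. In marker-pure cells, where 7.42% of 4944 genes were 2-fold higher and 3.54% lower, Cabp5 was 2.01-fold lower (1.53 to 2.66). The other 7 markers were within 2-fold. Cabp5 was uneven over cells, with 155 and 82 UMIs, of which up to 29 and 31 lay in 1 cell.

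**Figure D2:**
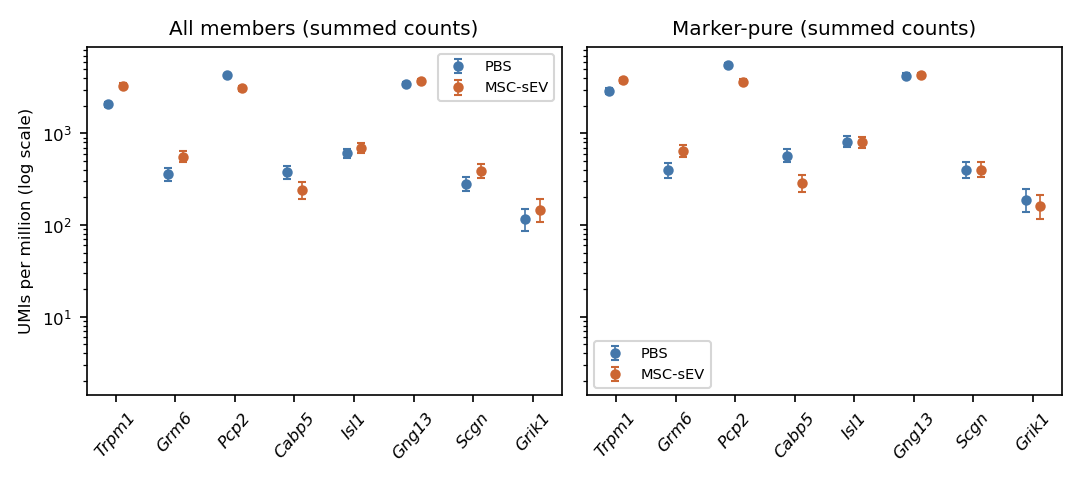
Summed level of the 8 genes that define the cells, in CPM on a log scale, for all members (left) and marker-pure members (right). Points are the 2 libraries and bars the exact 95% Poisson intervals of the counts. Trpm1 and Grm6 were higher in the MSC-sEV library, and Pcp2 and Cabp5 higher in PBS.

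At full depth, ON transcripts were seen in 47 of 49 PBS and 34 of 34 MSC-sEV members. Grm6 or Trpm1 without Scgn or Grik1 was seen in 22 of 49 PBS cells (44.9%, 30.7 to 59.8) and 14 of 34 MSC-sEV cells (41.2%, 24.6 to 59.3). Scgn or Grik1 alone was seen in 2 PBS cells (4.08%) and 0 MSC-sEV cells, which allows a share of up to 10.3%. Both kinds were seen in 25 (51.0%) and 20 (58.8%), so ON and OFF sets without overlap in these genes could not be compared. Scgn is counted here with the OFF receptor gene Grik1, and which type a cell with both kinds belongs to was not tested. Among members with an Scgn or Grik1 UMI, the median of Grm6 and Trpm1 together was 10 UMIs in PBS and 30 in MSC-sEV, against 2 and 5.5 UMIs of Scgn and Grik1. Of the 13 members in each library with at least 2 Scgn UMIs, Grm6 and Trpm1 exceeded Scgn and Grik1 in 5 PBS and 11 MSC-sEV cells. Of the members with Scgn or Grik1, 12 of 27 PBS and 5 of 20 MSC-sEV cells held 1 UMI of them. Scgn was also seen in 8.24% of PBS and 0.731% of MSC-sEV leukocytes, Grik1 in 4.95% and 0.731%, and Grm6 in 16.5% and 1.32%. These leukocytes include the members that met the leukocyte rule, 9 in PBS and 1 in MSC-sEV, and so hold some of the same cells. The part of free RNA in the mixed classes was not tested. After each cell was thinned to 1000 UMIs, Grm6 or Trpm1 alone was seen in 32 of 48 PBS cells (66.7%) and 21 of 34 MSC-sEV cells (61.8%), and both kinds in 4 and 12. At that depth ON transcripts were seen in 36 of 48 PBS cells (75%) and 33 of 34 MSC-sEV cells (97.1%), and 8 PBS cells and 0 MSC-sEV cells showed neither kind.

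Prkca separated the marker-pure cells. A Prkca group with at least 7 Prkca UMIs held 16 PBS and 15 MSC-sEV cells, and the other 13 and 15 cells had at most 1 and 2 Prkca UMIs. Of these others, 5 PBS and 2 MSC-sEV cells with at least 4 Grik1 UMIs formed a Grik1 group, and 8 and 13 remained. The groups were set after the data were seen, so they are described and not tested. In the Prkca group, Trpm1 ranged from 9 to 66 UMIs a cell in PBS (median 45) and from 20 to 81 in MSC-sEV (median 43). Scgn was at 0 UMIs in the 16 PBS cells and at 1 UMI in the 15 MSC-sEV cells.

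**Figure D3:**
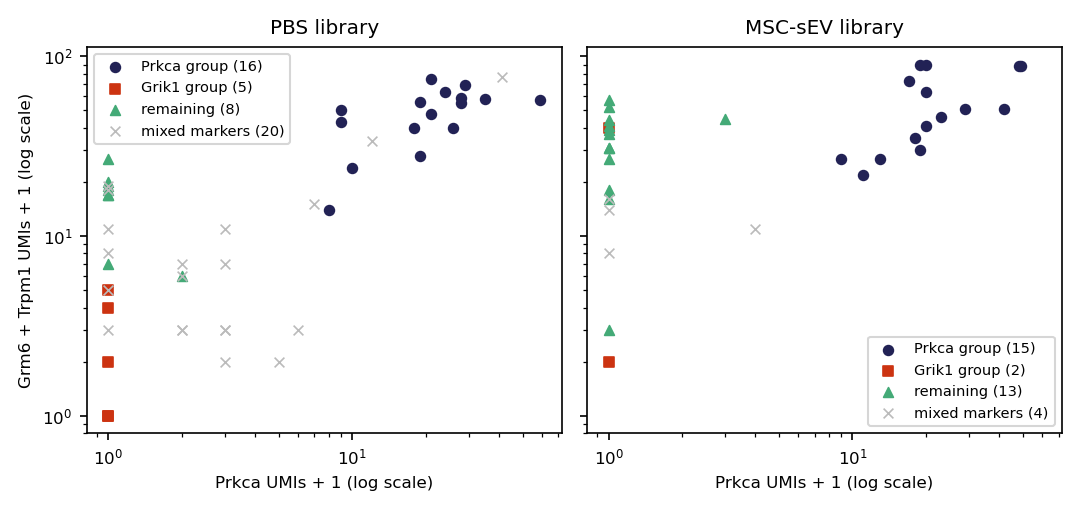
Prkca UMIs (x) against Grm6 and Trpm1 UMIs together (y), each plus 1 and on log scales, for every member by library. The Prkca group lies at the upper right with 16 PBS and 15 MSC-sEV cells, and cells of the Grik1 group, 5 and 2, have 0 Prkca UMIs.

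Genes known from rod bipolar cells were higher in the Prkca group than in the remaining cells in each library. Car8, a carbonic anhydrase-related protein, stood at 1218 against 16.4 CPM in PBS, and in MSC-sEV at 1480 against 87.7 CPM. Sebox, a homeobox gene, had 161 UMIs against 0 in PBS, at least 18.6-fold higher with a floor of 3 counts over the group, and 546 against 17.5 CPM in MSC-sEV. Pcp4, a small Purkinje cell protein, was 13.7-fold and 42.4-fold higher, and Ablim1, an actin-binding protein, 10.4-fold and 11.3-fold. Pcp4 was not particular to the Prkca group. It was also higher in the Grik1 group than in the remaining cells, 4.82-fold in PBS and 12.4-fold in the 2 MSC-sEV cells. The others of the 8 highest by the smaller of both ratios were Wscd2, Ccdc136, Efr3b and Kalrn. Of 1916 genes measured in both libraries, markers of other cell types left out, 99 (5.17%) were at least 2-fold higher and 53 (2.77%) at least 2-fold lower in the Prkca group in both, and 7 were past 2-fold in opposite directions.

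The remaining cells carried genes that were near 0 in the Prkca group. Reln, the extracellular glycoprotein reelin, was at 491 CPM (PBS) and 930 CPM (MSC-sEV), against 1 and 0 UMIs in the Prkca group. The AMPA receptor subunit Gria2 was at 786 and 807 CPM, and Ptprz1, a receptor phosphatase, at 687 and 886 CPM, with 0 UMIs in the Prkca group of either library. Unc13c, a Munc13 protein of vesicle priming, was at 589 and 1280 CPM against 3 and 2 UMIs. Rab3c, App, Pcdh9 and Gas6 completed the 8 lowest. Grm6 stood at 464 CPM in the Prkca group and 409 CPM in the remaining cells of PBS, and at 602 and 833 CPM in MSC-sEV, so the remaining cells also held the ON receptor. Pcp2 was higher in the Prkca group in each library, at 7425 against 2864 CPM and 6424 against 754 CPM. Cabp5 stood at 345 (PBS) and 235 CPM (MSC-sEV) in the Prkca group. In the remaining cells it was at 802 and 132 CPM, with a UMI in 4 of 8 and 3 of 13 cells.

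Vsx1, a transcription factor of some cone bipolar types, was found in the remaining cells and at 0 UMIs in the Prkca group. In the remaining cells it was seen in 2 of 8 PBS cells (229 CPM) and in 10 of 13 MSC-sEV cells (614 CPM). Cck, the peptide cholecystokinin, was seen in 2 of 8 (278 CPM) and 10 of 13 (1710 CPM), and had up to 12 and 52 UMIs in a cell. Reln was seen in 6 of 8 and 13 of 13, and Six3, a homeobox gene of retinal interneurons, in 3 of 8 (213 CPM) and 11 of 13 (807 CPM). Whether the 2 libraries held different cone bipolar types or the same types at different levels cannot be told apart with 8 and 13 cells.

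The Grik1 group held 7 cells, and its MSC-sEV values are in effect those of 1 cell with 27490 of the 29226 UMIs (94.1%). Their Grik1 UMIs ranged from 4 to 16 in PBS and were 9 and 29 in MSC-sEV. Grm6 was at 0 UMIs and Trpm1 at 0 to 4 UMIs in the 5 PBS cells, while the deep MSC-sEV cell had 35 Trpm1, 4 Grm6, 38 Pcp2, 7 Isl1 and 47 Gng13 UMIs beside 29 of Grik1. It thus held ON and OFF transcripts together and was the deepest of the marker-pure cells. Gsg1 was at 2680 CPM (PBS) and 342 CPM (MSC-sEV), against 49.1 and 17.5 CPM in the remaining cells. Slit2, a secreted guidance cue, was at 914 and 1403 CPM against 32.7 and 193 CPM, and Stmn1, a microtubule regulator, at 1218 and 1129 CPM against 131 and 175 CPM. Gpr179, which anchors the ON cascade's RGS proteins, was at 0 UMIs and 137 CPM against 704 and 728 CPM. Of 719 genes measured in both libraries, 15 (2.09%) were at least 2-fold higher and 19 (2.64%) at least 2-fold lower than in the remaining cells in both, and 13 went past 2-fold in opposite directions. On the MSC-sEV side these counts rest on that cell. Against the Prkca group, with the same limit, 46 of 1407 genes (3.27%) were at least 2-fold higher in both libraries and 128 (9.10%) at least 2-fold lower. Gria2 had 37 and 36 UMIs in the Grik1 group and 0 in the Prkca group, and Car8 had 0 against 215 and 214. Bhlhe23, a transcription factor known from rod bipolar cells, had 1 UMI in the Grik1 group of each library against 62 and 42 in the Prkca group.

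Between the libraries, the largest differences over all members lay mostly in genes known from other cells. The 10 lowest genes in MSC-sEV by the interval bound nearest 1 were Fscn2, Prcd, Rtbdn, Vtn, Guca1a, Susd3, Gnb1, Guca1b, Pla2g7 and Aipl1. Several are known from photoreceptors, such as Guca1a and Guca1b, the guanylate cyclase activators, and Prcd, a disc protein. All 16 rod markers were at least 2-fold lower, and they took 3.14% of PBS and 0.344% of MSC-sEV member UMIs. Guca1a was 8.20-fold lower over all members and 4.06-fold lower (2.06 to 8.75) in marker-pure cells. Of the 10 highest genes, Ccl24, Gatm, Emp3, Fcgr2b, Ifi27l2a, Srgn, Fn1 and Naaa had most of their MSC-sEV UMIs in the same cell, with 142 of 146 for Gatm and 52 of 61 for the chemokine Ccl24. This was the member that met the leukocyte rule, the deepest of all at 35752 UMIs. The other 2 were Cck and Ryr3, a calcium release channel with 3 PBS and 25 MSC-sEV UMIs and at most 5 in a cell. The part of carried RNA in these differences was not tested.

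In marker-pure cells the 10 highest genes were Cck, Lars2, Vsx1, Il6st, Elfn2, Six3, Reln, Stat5b, Dpy19l4 and Plekha6. Cck was 10.8-fold higher (6.56 to 18.9) and Vsx1 4.83-fold higher (2.70 to 9.28), and both lay in the remaining cells described above, which were 8 of 29 in PBS and 13 of 30 in MSC-sEV. Elfn2, a synaptic adhesion protein, had 9 UMIs after PBS and 47 after MSC-sEV and a UMI in 8 of 29 and 18 of 30 cells. Stat5b, a cytokine-activated transcription factor, had 9 and 43 UMIs in 8 and 16 cells. Of the MSC-sEV UMIs of both, 41 and 36 lay outside the Prkca group. The 10 lowest were Prcd, Gsg1, Nfib, Tlk1, Guca1a, Trmt6, Snhg11, Chgb, Wdr60 and Dnaja1. Gsg1 was 8.07-fold lower, with 91 and 12 UMIs, and 88 of its 91 PBS UMIs lay in the Grik1 group. Nfib, a nuclear factor I gene, was 5.75-fold lower (2.18 to 19.1), with 27 and 5 UMIs. Of these, 17 in PBS and all 5 in MSC-sEV lay in the Grik1 group, which had 5 and 2 cells. Snhg11, a neuronal noncoding RNA, was 2.52-fold lower and was also mostly in Grik1 group cells of PBS, with 60 of 97 UMIs. Chgb, the granule protein chromogranin B, was 1.92-fold lower (1.72 to 2.14), at 3482 and 1817 CPM, and stood at 4905 and 3146 CPM within the Prkca group.

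Within the Prkca group, 6.93% of 3017 measured genes were at least 2-fold higher and 4.91% at least 2-fold lower in MSC-sEV. Il6st encodes gp130, the shared receptor chain of the interleukin-6 cytokine family, and lies on chromosome 13 at 112464070 to 112510086 (GRCm38). It had 3 UMIs in 3 of 16 PBS cells and 20 UMIs in 11 of 15 MSC-sEV cells, 8.14-fold higher (2.41 to 42.8). Stat3, a transcription factor that gp130 activates, had 14 and 35 UMIs, in 8 and 11 cells, 3.05-fold higher (1.60 to 6.14). St18, a zinc finger transcription factor, was at 79.3 and 311 CPM, 3.92-fold higher (2.12 to 7.74). Gatad2b, Egln1, Zmynd8, Adcy1, Itsn2 and Dnmt3a were 2.88-fold to 6.41-fold higher. Zmynd8, Gatad2b and Dnmt3a are chromatin proteins.

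Lars2, the mitochondrial leucyl-tRNA synthetase on chromosome 9 at 123366927 to 123462666, was at 306 CPM (PBS) and 1570 CPM (MSC-sEV) cells of the Prkca group, 5.13-fold higher (3.80 to 7.04). It was seen in 15 of 16 and 15 of 15 cells with medians of 2.5 and 7 UMIs, and 1 MSC-sEV cell held 92. The log2 ratio over all members was 1.80, and 0.95 without members with at least 3 leukocyte marker UMIs, which left 22 PBS and 9 MSC-sEV cells. The mouse Lars2 transcript is known to contain a stretch like mitochondrial ribosomal RNA, so its count is uncertain. The difference was not found in bipolar cells alone. The ratio was 1.69 in rods (1.60 to 1.80), 3.24 in cones (2.84 to 3.69) and 1.46 in Müller glia (1.29 to 1.65). The Stat3 ratio was 2.97 in rods, 1.62 in cones and 2.28 in Müller glia, and the Il6st ratio 1.73, 1.57 and 1.21. The Il6st interval began at 2.41 in the Prkca group, which had 3 PBS UMIs, and was 1.36 to 2.22 in rods. Il6st was named for its high interval bound in bipolar cells, so the 2 intervals are not on equal terms. The differences between classes were not tested.

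The 10 lowest genes of the Prkca group were Tmem256, Guca1a, Dnaja1, Smap1, Rnf187, Ubb, Rrp1, Hist1h2bc, Sept3 and Utp11. Dnaja1 encodes an Hsp40 cochaperone, and it was at 2169 CPM (PBS) and 1086 CPM (MSC-sEV), 2.00-fold lower (1.66 to 2.42). Its median was 23 UMIs a cell in PBS, with a range of 6 to 68, and 8 UMIs in MSC-sEV, with a range of 0 to 26. Ubb, a polyubiquitin gene, was at 3189 and 1770 CPM, 1.80-fold lower (1.55 to 2.10), with medians of 34.5 and 14 UMIs. The ranges of the 2 libraries overlapped for both genes. Hspa8, the constitutive Hsp70 chaperone, was 1.49-fold lower (1.25 to 1.79), at 2045 and 1369 CPM. Elsewhere, in the other marker-pure cells, Ubb was 1.86-fold lower (1.59 to 2.17) and Hspa8 1.36-fold lower, but Dnaja1 was at 319 CPM (PBS) and 496 CPM (MSC-sEV). Ubb was also lower in rods, by 1.66-fold, and cones, by 1.63-fold, and in Müller glia its ratio was 0.939.

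**Figure D4:**
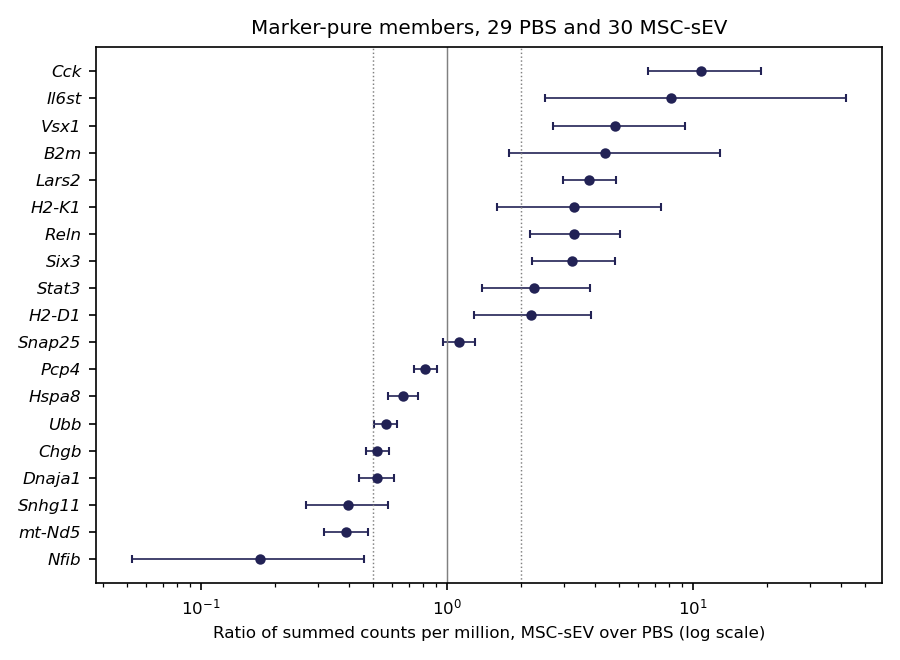
Ratio of summed CPM in MSC-sEV over PBS for 19 genes picked from the text, in 29 PBS and 30 MSC-sEV marker-pure cells, on a log scale. Bars are exact conditional binomial 95% intervals, and dotted lines mark 2-fold. Cck at 10.8, Il6st at 8.14 and Vsx1 at 4.83 lie highest of these 19, and Nfib at 0.174 and mt-Nd5 at 0.391 lowest.

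Genes of the ON cascade beyond the rule markers stayed within 2-fold. In marker-pure cells 10 of 11 listed genes were measured, 7 were above 1 and 3 below, and their median log2 ratio was 0.27 against 0.05 over all measured genes. Gnao1, the G protein alpha subunit of the cascade, was at 1471 and 1511 CPM and Gnb3, its beta subunit, at 1098 and 1212 CPM. Gpr179 was at 643 and 900 CPM, 1.40-fold higher (1.15 to 1.70). The 3 below 1 were Rgs11, an RGS protein of the cascade, at 255 and 226 CPM, its partner Gnb5 at 418 and 403 CPM, and Lrrtm4, a synaptic adhesion protein, at 129 and 111 CPM. Nyx, the dendritic protein nyctalopin, had 11 and 23 UMIs, a ratio of 1.96 (0.920 to 4.46).

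Of 20 listed transcription factors, 15 were measured in marker-pure cells, with 4 at least 2-fold higher and 1 lower, against 7.42% and 3.54% of all 4944 genes, and a median log2 ratio of 0.08. The 4 were Vsx1, Six3, St18 and Zfhx4, the last at 218 and 445 CPM. The lower one was Nfib, with most of its UMIs in the Grik1 group. Neurod4, a factor of bipolar cell development, was at 1161 and 1205 CPM. Among 7 listed rod bipolar genes, 6 were measured and Sebox was 2.12-fold lower (1.61 to 2.80) while Prkca was at 1287 and 1195 CPM and Car8 at 799 and 778 CPM. Within the Prkca group Sebox was 1.67-fold lower (1.27 to 2.21), at 912 and 546 CPM.

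The synaptic lists differed little between the libraries. Of 26 genes of ribbon synapse and release, 23 were measured in marker-pure cells, 1 was 2-fold higher and 0 lower, and the median log2 ratio was 0.27. Snap25, a SNARE protein of vesicle fusion, was at 1213 and 1358 CPM, Syt1, a calcium sensor of release, at 1593 and 1737 CPM, and Cplx3, the complexin of ribbon synapses, at 1360 and 1077 CPM. The gene past 2-fold was Bsn, a scaffold of the active zone, with 8 and 19 UMIs and a ratio of 2.23 (0.933 to 5.89). Of 13 genes of inhibitory input, 9 were measured, 0 passed 2-fold and the median was 0.31. Slc12a5, the chloride exporter of neurons, was at 695 and 938 CPM, and the GABA receptor subunits Gabrr1 and Gabrr2 were at 451 and 365 and at 370 and 375 CPM. Of 17 genes of calcium handling, 13 were measured and Camk2b, a calcium-dependent kinase, was 2.49-fold higher (1.74 to 3.63), with a UMI in 21 of 29 and 29 of 30 cells.

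**Figure D5:**
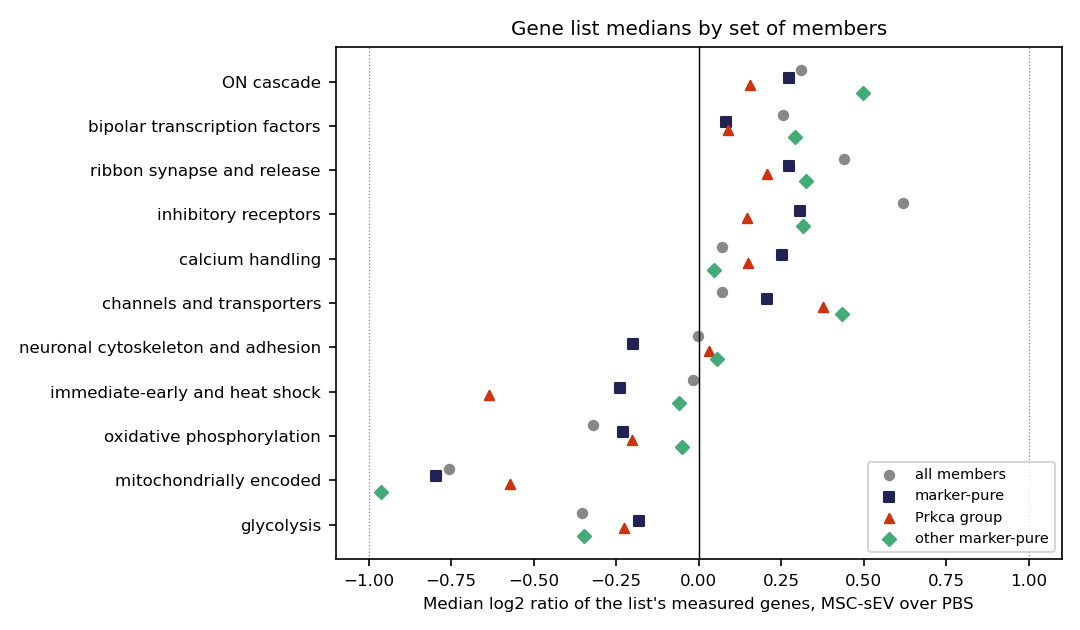
Median log2 ratio of MSC-sEV over PBS for 11 gene lists in all members, marker-pure members, the Prkca group and the other marker-pure members, shown where at least 5 genes were measured. Dotted lines mark 2-fold. The mitochondrially encoded genes lie at -0.57 to -0.96, lowest of the lists plotted in each set but the Prkca group, where the immediate-early and heat shock list is at -0.64, and the ON cascade and synaptic lists lie above 0.

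Transcripts of the mitochondrial genome were lower in MSC-sEV bipolar cells. All 13 were measured in marker-pure cells, and 12 were below a ratio of 1. At least 2-fold lower were 3, against 3.54% of all 4944 measured genes. The median log2 ratio was -0.79, against 0.05 over all measured genes. Mt-Co1, a subunit of cytochrome oxidase, had 3875 and 2398 UMIs and was 1.72-fold lower (1.63 to 1.81), and mt-Nd5, a subunit of complex I, was 2.56-fold lower (2.09 to 3.16). The exception was mt-Nd6, with 16 and 19 UMIs. Mitochondrial genes took a median of 8.49% of UMIs in PBS and 6.58% in MSC-sEV cells of the Prkca group, with ranges of 4.83% to 14.8% and 2.41% to 8.90% that overlapped. In the remaining cells the medians were 6.11% and 2.79%, and 3 MSC-sEV cells lay under 1%. The filter on mitochondrial share cut the upper end, and 8 PBS barcodes and 1 MSC-sEV barcode met the marker rule but exceeded it. The list median was -0.46 in rods and -0.54 in Müller glia, and 0.10 in cones, where 9 of the 13 genes were above 1.

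Nuclear genes of oxidative phosphorylation differed by less. Of 24 measured in marker-pure cells, 18 were below 1, and the median log2 ratio was -0.23, against 0.05 over all measured genes. At least 2-fold lower was 1, against 3.54% of all 4944 genes. Cox8a, a cytochrome oxidase subunit, was at 1534 and 1198 CPM, Ndufa4 at 1494 and 1174 CPM, and Uqcrc2, a core protein of complex III, at 251 and 111 CPM. Glycolysis genes had a median of -0.18 with 0 of 18 past 2-fold, and Gapdh was at 4048 and 3272 CPM. Pfkp, a phosphofructokinase, had the highest ratio of this list, 1.76, at 325 and 573 CPM.

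Chaperone and immediate-early genes were mostly lower in marker-pure MSC-sEV cells, and few passed 2-fold. Of 22 listed, 10 were measured in marker-pure cells, with 2 above 1 and 8 below. Their median log2 ratio was -0.24, against 0.05 over all 4944 measured genes. Past 2-fold, 1 was higher and 1 lower, against 7.42% and 3.54% of all measured genes. In the Prkca group all 5 measured were below 1 and 0 were 2-fold lower. Their median was -0.64, against 0.01 over all 3017 genes measured there. Jund, Btg2, Hspa8, Hsp90aa1 and Hsp90ab1 were from 1.06-fold to 1.66-fold lower. In the other marker-pure cells 3 of 7 were above 1 and the median was -0.06. Junb, an AP-1 subunit, had 12 and 26 UMIs, a ratio of 2.04 (0.992 to 4.43), and Fos, another, had 16 and 7, a ratio of 0.411 (0.143 to 1.06). Hsp90aa1, an Hsp90 chaperone, was at 1571 and 1789 CPM and its relative Hsp90ab1 at 765 and 584 CPM. Over all members Fos had 70 and 13 UMIs, so most PBS UMIs of it lay outside the marker-pure cells.

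Genes of excitability and structure stayed mostly within 2-fold in marker-pure cells. Of 20 channel and transporter genes, 8 were measured, 0 were 2-fold higher and 1 was lower, Kcnc1, a fast potassium channel, with 36 and 19 UMIs. Kcnma1, the large-conductance calcium-activated potassium channel, was at 1213 and 1501 CPM, and Slc4a10, a bicarbonate transporter, at 200 and 333 CPM, 1.67-fold higher (1.19 to 2.38). Of 21 cytoskeleton and adhesion genes, 10 were measured and 0 passed 2-fold, with a median log2 ratio of -0.20. Nrxn3, a presynaptic adhesion protein, was at 902 and 1251 CPM and the tubulin Tuba1a at 1457 and 1091 CPM. Among 10 neuronal noncoding RNAs, 5 were measured and Snhg11 alone passed 2-fold. Meg3 was at 1072 and 1497 CPM, 1.40-fold higher (1.20 to 1.63).

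Class I antigen presentation genes were low in bipolar cells, and the few that were measured were higher in MSC-sEV. Over all members 6 of 6 measured genes were at least 2-fold higher, against 10.9% of all 6283 genes. However, 140 of the 168 MSC-sEV UMIs of B2m, the class I light chain, lay in the 1 member that met the leukocyte rule. Of 15 listed genes, 3 were measured in marker-pure cells, and all 3 were at least 2-fold higher, against 7.42% of all 4944 genes. B2m had 6 UMIs in 6 of 29 PBS cells and 28 UMIs in 13 of 30 MSC-sEV cells, 4.38-fold higher (1.78 to 13.0). H2-K1 had 10 and 35 UMIs, of which 16 lay in 1 MSC-sEV cell of the Grik1 group, and H2-D1 had 21 and 49 UMIs, 2.19-fold higher (1.29 to 3.85). The same Grik1 group cell, at 27490 UMIs, held 9 of the 28 UMIs of B2m and 9 of the 49 of H2-D1. Without that cell, H2-K1 at a ratio of 1.97 (0.873 to 4.75) and H2-D1 at 1.98 (1.14 to 3.53) no longer passed 2-fold, while B2m did at 3.29 (1.26 to 10.1). This alternative was chosen after the data were seen. In the other marker-pure cells, where 9.35% of 2630 genes were at least 2-fold higher and 4.18% lower, all 3 were 2-fold higher. All 3 reached the minimum there only through their MSC-sEV UMIs. B2m stood at 4 and 24 UMIs there. Without the deep cell, the ratio was 3.04 (0.969 to 12.6) for B2m and 2.43 (0.997 to 6.78) for H2-D1, and both intervals held 1. H2-K1 was at 4.87 (1.08 to 44.8), from 2 PBS UMIs. B2m, with 4 and 15 UMIs, and H2-K1, with 2 and 12, were then below the minimum for a measured gene. In the Prkca group B2m had 2 and 4 UMIs and H2-K1 8 and 7, and H2-D1, the only one measured there, had 14 and 19, at 79.3 and 131 CPM, a ratio of 1.66 (0.788 to 3.57). The interval of each of the 3 held 1, so a difference was not detectable there at this depth. The sum of the 15 listed genes was 1.99-fold higher there, but all of them except H2-D1 were below the minimum for a measured gene. In rods B2m was at 102 and 152 CPM, above the 22.2 and 97.3 CPM of marker-pure bipolar cells, and the part of free RNA in the bipolar level was not tested. In Müller glia B2m was at 319 and 1192 CPM.

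Of 20 listed growth and survival genes, 9 were measured in marker-pure cells, 2 were 2-fold higher (Il6st and Stat3) and 0 lower, against 7.42% and 3.54% of all 4944 genes, with a median log2 ratio of 0.65 against 0.05. Igf1r, the receptor of insulin-like growth factor, had 53 and 98 UMIs, 1.74-fold higher (1.23 to 2.47), and Ntrk2, the receptor of BDNF, had 44 and 77. Socs3, a feedback inhibitor that Stat3 induces, had 2 and 8 UMIs in marker-pure cells, below the minimum for a measured gene. Over all members it had 5 and 31 UMIs, with 23 of the 31 in 1 cell. Of 20 genes of neuronal stress and injury, 7 were measured in marker-pure cells, with 1 at least 2-fold lower, Ddit3, a stress-induced transcription factor with 15 and 7 UMIs, and a median of -0.02.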

How the data were processed

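The deposited values are UMI counts per gene and barcode. Per the submitters' processing notes the authors used Cell Ranger 3.0.2 and mm10. Tissue was digested in papain and enriched with CD45 beads, per the labels' protocols. The libraries held 8439740 (PBS) and 16987131 (MSC-sEV) UMIs in 1676 and 2593 barcodes.

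Counts were summed over members per library and scaled to CPM, and compared as ratios with exact conditional binomial intervals in Python 3.11.15 with scipy 1.17.1. A library at 0 counts was set to a floor of 3 counts over the group. Genes with at least 20 UMIs in both libraries together were measured. The calculation of the ratio and its interval was checked on simulated Poisson counts. These left out differences between cells, so they do not show that the intervals hold for these data. The text names the 10 genes at each end of the order by the interval bound nearest 1, with a UMI in at least 10% of members of the higher library; mitochondrial, ribosomal protein, sex-linked, model genes and markers of other types were left out. List genes were named by count and by ratio, and a few more after their values were seen. For cell groups, the 8 genes each way by the smaller ratio of both libraries were taken. Rods, cones and Müller glia were other kept barcodes set by marker UMIs (972 and 1308, 70 and 45, 50 and 42 cells). Gene coordinates are from GENCODE M21. Alternatives changed the filter, the marker rule, the members, the denominator, the weights, the depth and the gene minimum. Values of a few genes are not reported here. Doublets were not removed in the values reported. The planned comparison of cells with only ON and only OFF markers was replaced by groups set on Prkca and Grik1. The members, lists and tests were chosen with earlier results of these data known.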

Additional observations from a re-analysis of the deposited data

Results flagged for a closer look

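3 of the 480 named or listed genes went in opposite directions between the libraries in the Prkca group and in the other marker-pure cells, with both intervals on opposite sides of 1. The difference between the groups was not tested. Isl1 had a ratio of 0.655 (0.510 to 0.836) in the Prkca group, from 192 and 103 UMIs, and 2.95 (1.95 to 4.62) in the others, from 28 and 126. Gng13 had 0.896 (0.809 to 0.991) and 1.55 (1.33 to 1.81). Pgk1, a glycolytic kinase, had 1.40 (1.05 to 1.87) and 0.718 (0.547 to 0.943). Isl1 and Gng13 are among the genes that chose the cells, and the other cells held 5 PBS and 2 MSC-sEV cells of the Grik1 group.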

How the results depend on the processing

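No paired analysis was possible because each group had 1 library, and for the same reason no library could be left out. Scrublet called 3 PBS and 4 MSC-sEV barcodes (0.223% and 0.172%), 1 of them a PBS member, so its calls say little about doublets. The ratio of shares, 0.402, was 0.237 without members with at least 3 leukocyte marker UMIs, which left 22 and 9 cells, and from 0.399 to 0.600 under the other 7 settings, highest with marker-pure members. Members with Grm6 or Trpm1 alone were 22.2% of MSC-sEV cells without members with at least 3 leukocyte marker UMIs, against 41.2%, and 66.7% and 61.8% after thinning.

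Over all members 682 genes were at least 2-fold higher and 348 lower. The counts were 221 and 198 without members with leukocyte UMIs, 367 and 175 in marker-pure members, 209 and 148 in the Prkca group, 246 and 110 in the other marker-pure members, 71 and 78 after thinning, 222 and 119 with a minimum of 50 UMIs per gene, and 3244 and 1797 with a minimum of 1. These sets measured different numbers of genes.

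Some log2 ratios whose interval excluded 0 changed sign. Gng13 was -0.020 with the stricter marker rule, -0.16 in the Prkca group and -0.087 after thinning. B2m was -0.23 without the 10% deepest members and -0.0048 without its highest member in each library. Hsp90ab1 was -0.50 without members with leukocyte UMIs, -0.29 without the deepest members and -0.39 in marker-pure members. It was -0.64 in the Prkca group, -0.23 in the others and -0.11 without its highest member in each library. In the other marker-pure members Scgn was -0.52, Dnaja1 0.63, Gatad2b -0.061, Gria2 -0.018, Syt1 -0.040 and the median of OFF dendrite receptors -0.018. In the Prkca group Otx2 was -0.068 and Gnao1 -0.043. Without the deepest members Gria2 was -0.016, Malat1 0.0025 and the medians of microglia and of T cell markers -1.90 and -0.76. The median of ganglion cell markers was -0.22 with a minimum of 1 UMI. Of the ratios of single genes under each alternative, 868 moved within their interval, 210 moved beyond it and 20 changed sign from an interval that excluded 0, and of the list medians these counts were 343, 47 and 4. The Lars2 log2 ratio was 1.48 without its highest member in each library, of 11 UMIs in PBS and 92 in MSC-sEV, against 1.80. The causes were not tested.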
